A study of Homo sapiens with 6 samples.

Results

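Cells make cholesterol from acetyl-CoA through mevalonate, farnesyl diphosphate, squalene and lanosterol, and they make fatty acids from the same acetyl-CoA. Both routes are switched on by sterol regulatory element binding proteins (SREBPs). These factors are held in the endoplasmic reticulum by INSIG proteins when sterols are plentiful, escorted to the Golgi by SCAP when sterols run low, and released there by a pair of proteases to enter the nucleus. Tumour cells often keep both routes active, since dividing cells need membrane lipid.

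The 36 genes described here were the rows of the deposited gene count table that carry the listed symbols, out of 58735 genes in the table. They fall into 20 genes of cholesterol synthesis and sterol transfer, 9 genes of fatty acid synthesis, elongation and desaturation, and 7 genes that encode or process SREBPs. Each of the 36 symbols had 1 row, and all 36 passed the filter on low counts that left 15400 genes for testing. SC5D alone was without a read in 1 group, so it passed that filter through its reads in the BARD1-expressing cells.

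The 3 BARD1-expressing libraries came from ovarian carcinoma cells transduced with a lentivirus that carries the BARD1 open reading frame and labelled as stable cells at 48 h, and the 3 control libraries came from cells with the genotype label control, the same treatment label and the same time label. What the control cells carry was not given in the sources used here, nor whether the transduced cells are 1 clone. All cells shared a medium with fetal bovine serum. The labels conflict on the line, which is OVCAR8ip1 in titles and growth protocol and SKOV3ip1 in the cell line tag, and on the material, which the tissue tag gives as SKOV3ip1 tumors. The replicates were labelled biological without saying that they were separate cultures, so the p-values take the spread among libraries as their error, which may be technical. BARD1 and anything else that sets the transduced cells apart from the controls cannot be told apart.

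BARD1-expressing libraries 1 to 3 held 12744310, 24349158 and 15147685 counted reads, and control libraries 1 to 3 held 23992482, 22767552 and 21819199. Levels are given as CPM, the reads per 1e+06 of a library total, taken over tested genes and multiplied by a scaling factor. BARD1 itself averaged 46.3 ± 2.43 CPM in BARD1-expressing cells and 17.9 ± 1.30 CPM in control cells (SD, n = 3 each). Its log2 fold change was 1.37 ± 0.081 (SE). Of the epithelial markers, KRT7, KRT8 and KRT18 carried nearly all the signal, and KRT19 had no read. The summed level was 3655 to 3908 CPM in BARD1-expressing libraries and 3636 to 3703 CPM in control libraries. EPCAM averaged 19.0 ± 1.01 CPM in BARD1-expressing cells and 19.2 ± 0.491 CPM in control cells (SD, n = 3 each). CDH1 was low, at 0.999 ± 0.0593 CPM in BARD1-expressing cells and 1.08 ± 0.183 CPM in control cells (SD, n = 3 each). Among 5 markers of serous ovarian carcinoma MUC16 had no read in any library, while the summed level was 274 to 303 CPM in BARD1-expressing libraries and 311 to 348 CPM in control libraries. Of these, PAX8 was called lower, at 91.4 ± 6.09 CPM in BARD1-expressing cells and 143 ± 8.98 CPM in control cells, FOLR1 higher, at 3.80 ± 0.472 CPM in BARD1-expressing cells and 2.56 ± 0.0665 CPM in control cells (SD, n = 3 each), WT1 higher with overlapping groups under 2 CPM, and MSLN was not called. The 5 markers of adipocytes, cells rich in lipid synthesis enzymes, summed to 0.393 to 0.730 CPM in BARD1-expressing libraries and 0.206 to 0.507 CPM in control libraries, with ADIPOQ and LEP at 0 in all 6. The 5 endothelial markers summed to 1.28 to 2.06 CPM in BARD1-expressing libraries and 0.578 to 0.830 CPM in control libraries, and the 5 immune markers to 0.165 to 0.664 CPM in BARD1-expressing libraries and 0.185 to 0.371 CPM in control libraries. The 5 fibroblast markers summed to 839 to 886 CPM in BARD1-expressing libraries and 1014 to 1082 CPM in control libraries, nearly all of it COL1A1, which was called lower, with DCN at 0 in all libraries. PDGFRB was called higher, at 13.7 ± 0.922 CPM in BARD1-expressing cells and 4.81 ± 0.634 CPM in control cells (SD, n = 3 each), as were LUM, with 14, 15 and 10 reads in BARD1-expressing libraries and 7, 3 and 3 reads in control libraries, the endothelial marker KDR and the epithelial marker KRT7. The part of these differences in the results was not tested. The 13 mitochondrially encoded mRNAs summed to 10602 ± 1624 CPM in BARD1-expressing cells and 19487 ± 2553 CPM in control cells (SD, n = 3 each). With the scaling factors computed without chromosomes 5, 18, X and MT, 16 of the 36 genes were called, against 18 with all chromosomes. In bulk RNA, fewer cells of a type and less RNA per cell cannot be told apart.

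Of the lipid synthesis genes that were called, most were lower and by a modest amount, with a large drop in SCD and INSIG1. The median log2 fold change was -0.16 in the cholesterol branch without SC5D. It was 0.01 in the fatty acid branch and 0.02 among the SREBP regulators. A gene was called higher or lower at a Benjamini-Hochberg adjusted p under 0.05 in edgeR's quasi-likelihood test over all 15400 tested genes. By this rule 14 of the 36 genes fell, 4 rose and 18 were not called. SC5D is 1 of the 4, and since it passed the filter through the group where it was high, its call carries no weight, which leaves 3 that rose. Of all tested genes 12.4% were called lower, 16.5% higher and 29.0% in either direction. Among the 10847 tested genes that averaged 5 CPM or more, as 35 of the 36 did, 14.7% were called lower, 18.6% higher and 33.3% in either direction. The groups did not overlap for 13 of the 36 genes in the lower direction and for 7 in the higher direction. Of all tested genes the shares were 19.2% and 21.7%, or 40.9% in either direction. SC5D is 1 of the 7, and its groups had to differ, as it passed the filter through 1 group alone. The median log2 fold change was -0.11 over the 35 genes with reads in both groups, of which 21 lay below 0, and the median over all tested genes was -0.003. Among the genes that fell the change ran from -8.94% (ACLY) to -50.8% (SCD).

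**Figure D1:**
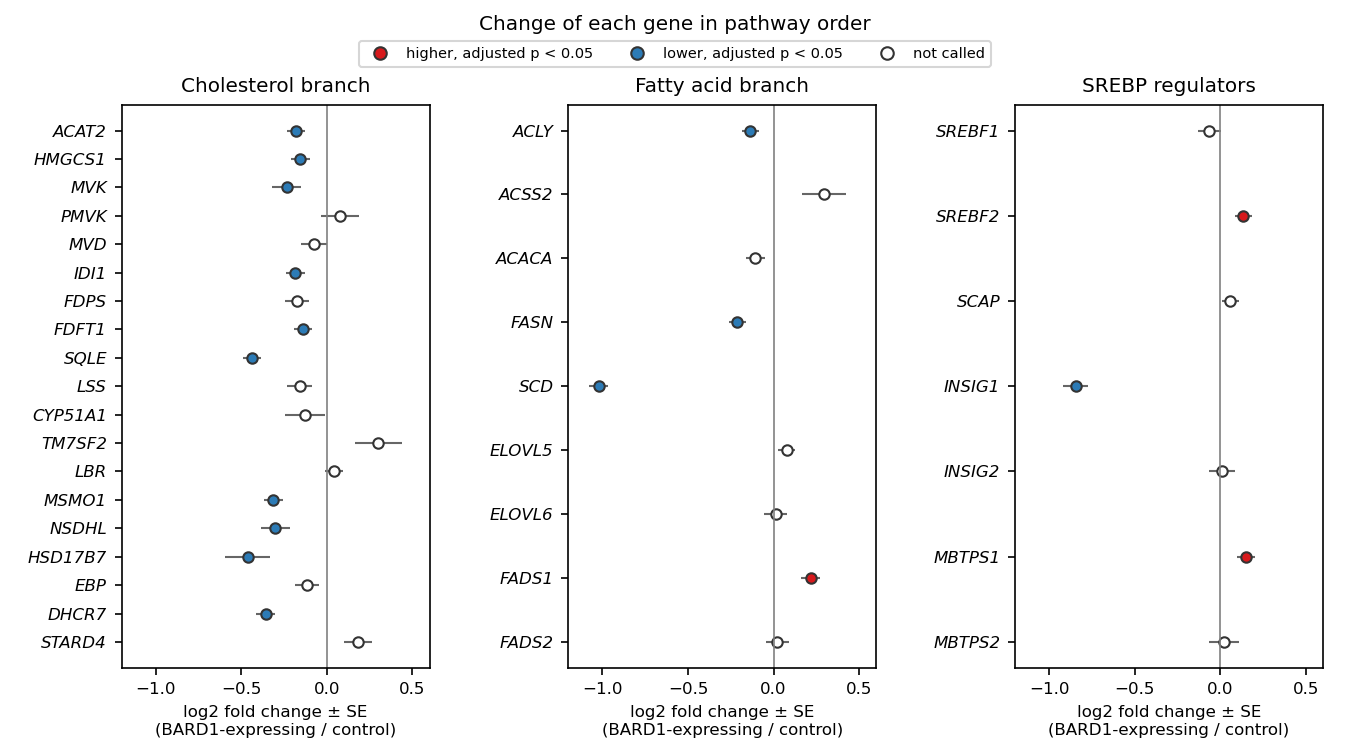
Log2 fold change with its SE (BARD1-expressing over control, n = 3 libraries each) for 35 of the 36 genes, in pathway order from top to bottom, with filled points for called genes. SC5D, without a read in control cells, is left out. SCD at -1.02 and INSIG1 at -0.84 stand far to the left of the others.

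Windows around the annotated starts of 4 genes are shown first, because SCD and INSIG1 carried the changes of greatest size, MSMO1 stands for the sterol enzymes that fell, and SREBF2 encodes the SREBP that mainly drives cholesterol synthesis. Each window runs from 250 bases before to 50 bases after a RefSeq start on GRCh38.p14, on the plus strand. Capitals mark matches, on either strand, to TCACNCCAC (a form of the sterol regulatory element), CACGTG (an E-box, which SREBPs and other helix-loop-helix factors can bind) and CCAAT (bound by NF-Y, which works beside SREBPs), the last also read as ATTGG. No printed match overlaps another. The windows are INSIG1 at chr7:155297628-155297927, SCD at chr10:100346983-100347282, MSMO1 at chr4:165327419-165327718 and SREBF2 at chr22:41832855-41833154.
INSIG1: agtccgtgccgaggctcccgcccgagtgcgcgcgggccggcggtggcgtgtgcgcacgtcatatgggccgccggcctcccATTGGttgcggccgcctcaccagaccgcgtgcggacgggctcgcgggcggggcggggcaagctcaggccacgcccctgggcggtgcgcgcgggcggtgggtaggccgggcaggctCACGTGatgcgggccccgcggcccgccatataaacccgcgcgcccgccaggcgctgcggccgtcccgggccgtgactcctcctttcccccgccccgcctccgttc
SCD: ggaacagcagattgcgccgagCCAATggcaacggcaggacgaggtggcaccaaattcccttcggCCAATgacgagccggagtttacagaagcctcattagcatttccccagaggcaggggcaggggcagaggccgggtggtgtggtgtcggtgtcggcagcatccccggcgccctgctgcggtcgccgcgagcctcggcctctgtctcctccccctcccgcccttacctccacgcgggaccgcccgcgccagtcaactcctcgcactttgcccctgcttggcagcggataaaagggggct
MSMO1: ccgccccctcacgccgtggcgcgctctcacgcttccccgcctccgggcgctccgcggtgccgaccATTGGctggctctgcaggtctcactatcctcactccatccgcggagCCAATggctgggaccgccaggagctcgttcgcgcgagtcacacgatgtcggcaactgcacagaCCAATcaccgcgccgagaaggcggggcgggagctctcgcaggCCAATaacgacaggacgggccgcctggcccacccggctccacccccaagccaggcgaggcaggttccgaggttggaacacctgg
SREBF2: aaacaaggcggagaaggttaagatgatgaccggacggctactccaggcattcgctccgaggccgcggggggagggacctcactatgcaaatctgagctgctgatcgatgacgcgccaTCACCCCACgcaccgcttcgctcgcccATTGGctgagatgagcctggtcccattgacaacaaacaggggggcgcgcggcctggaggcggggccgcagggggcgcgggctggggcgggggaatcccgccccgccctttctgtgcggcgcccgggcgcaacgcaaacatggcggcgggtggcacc

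In these letters the first base of CACGTG lies at -55 from the start of INSIG1 and ATTGG at -170. SCD has CCAAT at -229 and -186, and MSMO1 has CCAAT or its complement at -185, -139, -76 and -34. Of the other sterol enzymes that fell and had a window, MVK and NSDHL held 5 CCAAT matches and HSD17B7 held 2. The windows of HMGCS1 and of DHCR7 held 2 and 0, and those of IDI1 held 0, 3 and 2. SREBF2 holds TCACCCCAC at -133 and ATTGG at -106. Of the 32 listed genes with a window in the table, 1 held TCACNCCAC, 5 held CACGTG and 22 held CCAAT in at least 1 of its windows. Over 27305 gene symbols the shares were 1.39% for TCACNCCAC, 8.77% for CACGTG and 39.7% for CCAAT. A match describes the letters and is not a bound site, and a window without one says nothing about the factor. No window was at hand for ACAT2, FDFT1, SQLE and FASN.

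In the cholesterol branch, 10 of 20 genes fell, 9 were not called and 1, SC5D, was called higher through reads in BARD1-expressing cells alone. The median log2 fold change was -0.16 over the 19 genes with reads in both groups, 15 of them below 0. Summed over the 20 genes, the level was 1617 ± 21.9 CPM in BARD1-expressing cells and 1855 ± 73.3 CPM in control cells (SD, n = 3 each), a difference of -12.8%. The groups did not overlap for 9 genes that were lower and for 2 that were higher. The 2 were TM7SF2 and SC5D, and the groups of SC5D had to differ. With 1 library omitted, the number that fell was 4 without control library 2, 5 without BARD1-expressing library 3 and 6 without control library 1.

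SQLE and DHCR7 had the smallest adjusted p among the cholesterol genes that fell. EBP, which acts shortly before DHCR7, was not called. SC5D, which acts just before DHCR7, had no read in control cells and so could not be called lower. SQLE (ENSG00000104549, chromosome 8, 124998497 to 125022283, GRCh38 as for all positions), the epoxidase that commits squalene to sterols, had 239, 227 and 232 CPM in BARD1-expressing libraries 1 to 3, against 315, 334 and 295 CPM in control libraries 1 to 3. Its 2 sets of values were far apart, and the log2 fold change came to -0.44 ± 0.052 (edgeR adjusted p = 5.28e-07). DHCR7 (ENSG00000172893, chromosome 11, 71428193 to 71452868), the reductase that forms cholesterol in the last step of one route, had 117, 122 and 117 CPM in BARD1-expressing libraries, against 149.8, 162 and 144 CPM in control libraries. No library of one group reached the other, and DHCR7 fell, at -0.36 ± 0.055 on the log2 scale (edgeR adjusted p = 2.2e-05).

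MSMO1, NSDHL and HSD17B7, the 3 enzymes that work together on the sterol ring after CYP51A1 to remove further methyl groups, each fell. CYP51A1, which removes the first, was not called, with a log2 fold change of -0.13 ± 0.12 and overlapping groups (edgeR adjusted p = 0.46). Its exons share 83.2% of their bases with other genes, so its counts are uncertain. MSMO1 (ENSG00000052802, chromosome 4, 165327623 to 165343160), the oxygenase of that step, had 90.9, 86.8 and 84.1 CPM in BARD1-expressing libraries, against 111, 109 and 106 CPM in control libraries. Its log2 fold change was -0.31 ± 0.056 (edgeR adjusted p = 0.000123), and the highest BARD1-expressing value lay well under the lowest control value. NSDHL (ENSG00000147383, chromosome X, 152830967 to 152869729), the dehydrogenase of that step, had 23.2, 29.1 and 27.3 CPM in BARD1-expressing libraries, against 33.04, 34.4 and 31.4 CPM in control libraries. BARD1-expressing library 1 was the lowest and the groups stayed apart, with a log2 fold change of -0.30 ± 0.085 (edgeR adjusted p = 0.00902). HSD17B7 (ENSG00000132196, chromosome 1, 162790702 to 162812817), the ketoreductase of that step, was expressed at a low level, with 7.0, 5.99 and 5.77 CPM in BARD1-expressing libraries, against 9.32, 8.23 and 8.12 CPM in control libraries. The log2 fold change came to -0.46 ± 0.13 (edgeR adjusted p = 0.0108), with the groups again apart. Its pseudogene HSD17B7P2 held reads equal to 20.7% of the gene's own count and averaged 1.17 ± 0.536 CPM in BARD1-expressing cells and 1.95 ± 0.324 CPM in control cells (SD, n = 3 each), so how reads were divided between the copies is uncertain.

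Of the genes of the first steps, ACAT2, HMGCS1 and MVK fell, while PMVK and MVD were not called. ACAT2 (ENSG00000120437, chromosome 6, 159760328 to 159779055), the thiolase that joins acetyl-CoA units, had 97.1, 102 and 103 CPM in BARD1-expressing libraries, against 111, 117 and 114 CPM in control libraries, and the groups did not overlap. The log2 fold change came to -0.18 ± 0.054 (edgeR adjusted p = 0.0135). Exons of the opposite strand genes SOD2, SOD2-OT1 and TCP1 cover 52.3% of the exonic bases of ACAT2, and whether counting used strand was not given in the sources used here. SOD2 rose, with a log2 fold change of 0.21 ± 0.068 (edgeR adjusted p = 0.0211), and TCP1 was not called, at -0.05 ± 0.051. HMGCS1 (ENSG00000112972, chromosome 5, 43289395 to 43313512), the synthase of the next step, had 111, 109 and 107 CPM in BARD1-expressing libraries, against 123, 126 and 115 CPM in control libraries. Its groups were close without overlap, and the log2 fold change came to -0.15 ± 0.054 (edgeR adjusted p = 0.0344). MVK (ENSG00000110921, chromosome 12, 109573255 to 109598117), mevalonate kinase, had 36.9, 43.5 and 38.3 CPM in BARD1-expressing libraries, against 51.1, 48.5 and 40.8 CPM in control libraries. Control library 3 lay among the BARD1-expressing values, so MVK was the 1 gene called lower whose groups overlapped, with a log2 fold change of -0.24 ± 0.084 (edgeR adjusted p = 0.0381).

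Among the isoprenoid and squalene steps, IDI1 (ENSG00000067064, chromosome 10, 1039152 to 1049170), the isomerase of isopentenyl diphosphate, had 201, 169 and 183 CPM in BARD1-expressing libraries, against 203, 218 and 207 CPM in control libraries. BARD1-expressing library 1 came close to control library 1, and the log2 fold change came to -0.18 ± 0.058 (edgeR adjusted p = 0.0191). FDFT1 (ENSG00000079459, chromosome 8, 11795573 to 11839309), squalene synthase, had 183, 175 and 186 CPM in BARD1-expressing libraries, against 195, 209 and 195 CPM in control libraries. It was the smallest fall in the branch, with a log2 fold change of -0.14 ± 0.052 (edgeR adjusted p = 0.0423). FDPS (ENSG00000160752, chromosome 1, 155308748 to 155320666), which makes farnesyl diphosphate, lay just outside the threshold, with 63.00, 71.03 and 61.1 CPM in BARD1-expressing libraries, against 77.6, 75.9 and 67.7 CPM in control libraries. BARD1-expressing library 2 lay above control library 3, and the log2 fold change came to -0.18 ± 0.070 (edgeR adjusted p = 0.0601).

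SC5D (ENSG00000109929, chromosome 11, 121292453 to 121308694), the desaturase that acts just before DHCR7, was detected at a very low level, in BARD1-expressing cells alone. It had 6, 14 and 8 reads in BARD1-expressing libraries 1 to 3, or 0.472, 0.578 and 0.531 CPM, against no read in any control library. Pooled over each group the counts were 28 in BARD1-expressing cells and 0 in control cells, which is at least 12.3-fold higher with 3 counts set for the control group as a whole, and 7.99 to 12.8 when any 1 library was omitted. These values are a description, since a gene that passes the filter through 1 group alone has to differ. Each BARD1-expressing library held few reads, and the level stayed under 1 CPM in all of them. This bound covers the error of counting alone, as the reads carry no molecular identifiers and need not be separate molecules.

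The remaining cholesterol genes were not called, and their log2 fold changes lay between -0.16 (LSS) and 0.30 (TM7SF2). STARD4 (ENSG00000164211, chromosome 5, 111496033 to 111512590), which carries sterol between membranes, lay just outside the threshold, with 38.9, 32.3 and 34.2 CPM in BARD1-expressing libraries, against 29.7, 30.00 and 32.7 CPM in control libraries. Its lowest BARD1-expressing value was under the highest control value, and the log2 fold change came to 0.18 ± 0.081 (edgeR adjusted p = 0.0983). LSS, which folds the squalene epoxide into lanosterol, had a log2 fold change of -0.16 ± 0.072. The exons of CYP51A1 share 83.2% of their bases with other genes, chiefly the readthrough gene AC000120.2 on the same strand, which had no read in any library. Pseudogenes of CYP51A1 held reads equal to 9.95% of its own count. The main one, CYP51A1P2, averaged 0.629 ± 0.279 CPM in BARD1-expressing cells and 1.04 ± 0.307 CPM in control cells (SD, n = 3 each). How reads were divided between these copies is uncertain. Of the 36 genes, 6 share over 10% of their exonic bases with other genes, the rest being ACAT2, FDPS (18.6%), HMGCS1 (15%), IDI1 (14.8%) and MBTPS2 (13.4%), and SCD, INSIG1, SQLE, DHCR7, MSMO1 and SC5D share none. TM7SF2 and LBR, the sterol reductases that follow, had log2 fold changes of 0.30 ± 0.14 and 0.04 ± 0.053. PMVK and MVD, the later mevalonate enzymes, had 0.08 ± 0.11 and -0.08 ± 0.076, and the isomerase EBP had -0.11 ± 0.070.

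**Figure D2:**
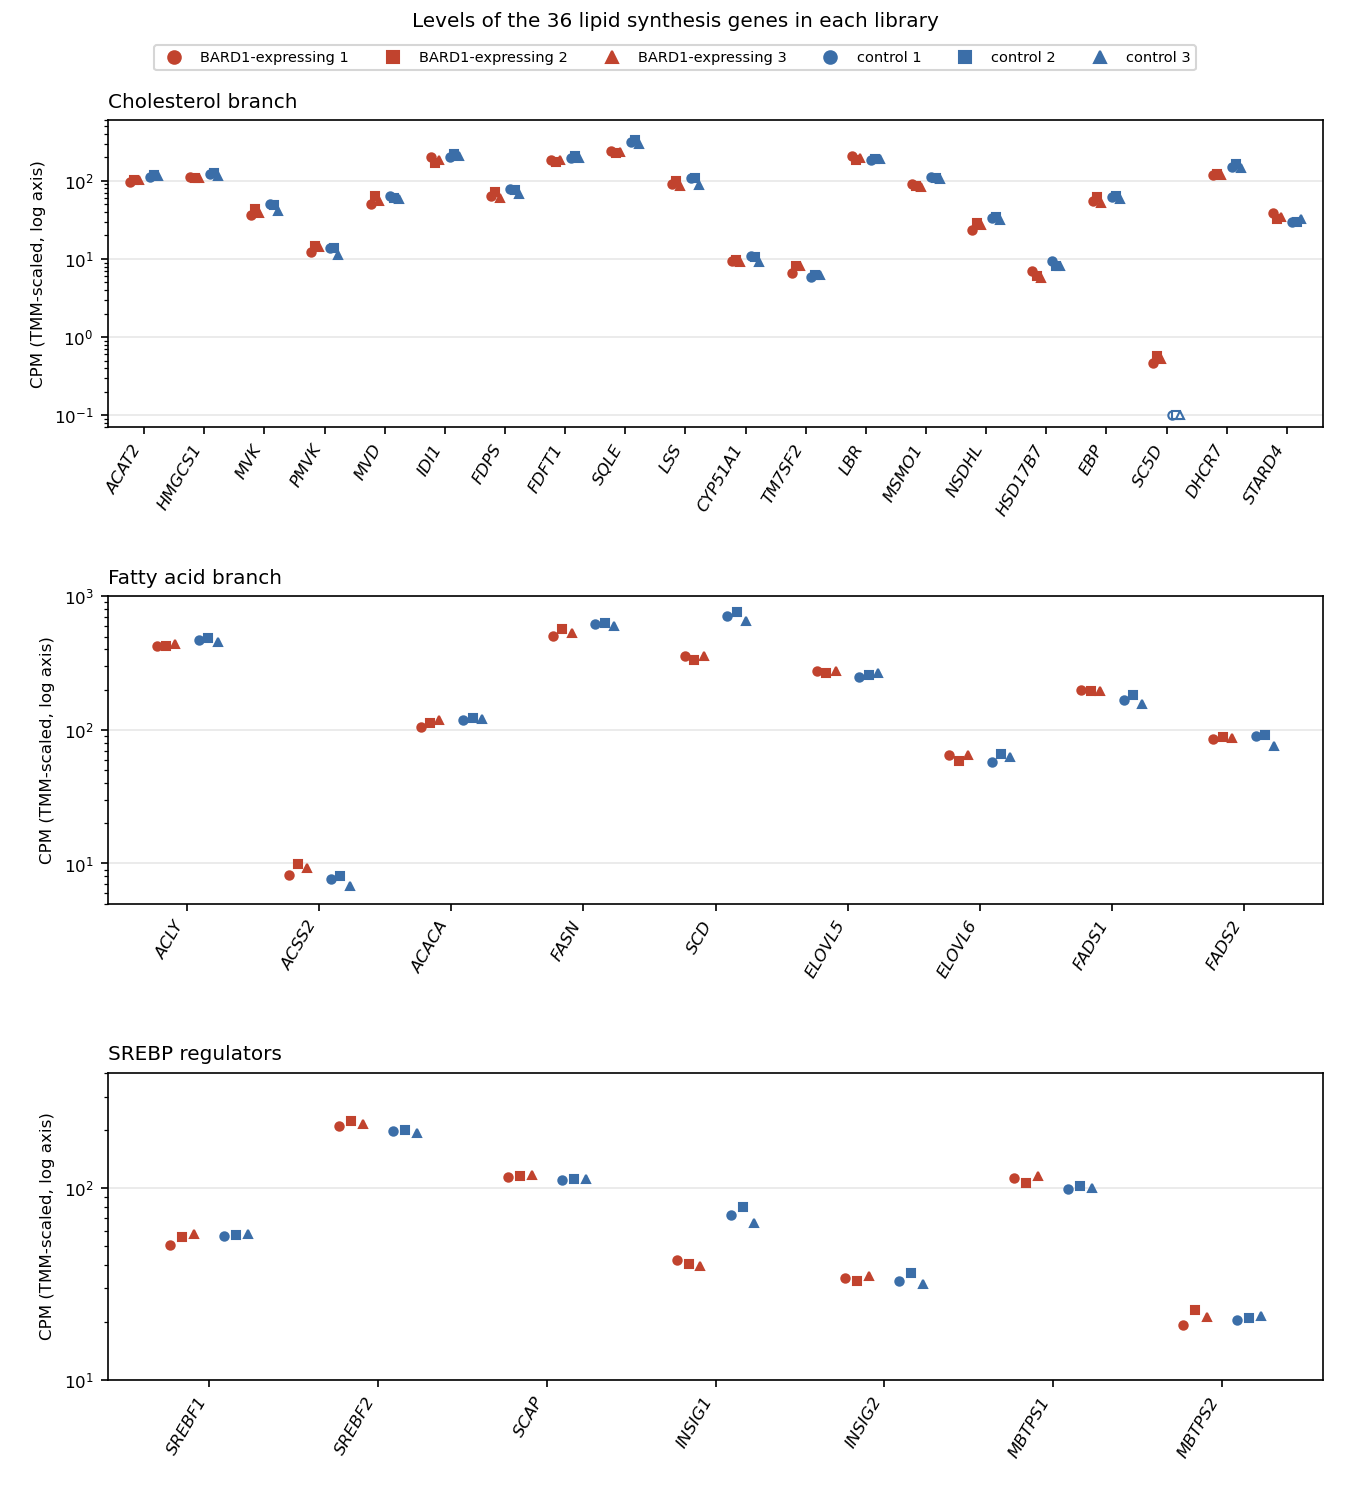
CPM of each of the 36 genes in each library on a log axis, with BARD1-expressing libraries in red left of control libraries in blue. Open symbols at 0.1 stand for the 3 control libraries of SC5D, which held no read.

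In the fatty acid branch, 3 of 9 genes fell, 1 rose and 5 were not called, with a median log2 fold change of 0.01 and 4 genes below 0. The summed level was 2052 ± 24.96 CPM in BARD1-expressing cells and 2502 ± 99.8 CPM in control cells (SD, n = 3 each), a difference of -17.98%. Without SCD the sums were 1703 ± 28.4 CPM in BARD1-expressing cells and 1793 ± 49.97 CPM in control cells (SD, n = 3 each), a difference of -5.03%. SCD thus held most of the difference in the summed level.

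SCD (ENSG00000099194, chromosome 10, 100347124 to 100364834), the desaturase that turns saturated into monounsaturated fatty acids, had 355, 335 and 358 CPM in BARD1-expressing libraries 1 to 3, against 709, 759 and 659 CPM in control libraries 1 to 3. All 3 BARD1-expressing values lay far under all control values. The log2 fold change came to -1.02 ± 0.054 (edgeR adjusted p = 6.45e-13), a difference of -50.8%. FASN (ENSG00000169710, chromosome 17, 82078333 to 82098332), the synthase that builds palmitate, had 504, 569 and 529.9 CPM in BARD1-expressing libraries, against 624, 632 and 602 CPM in control libraries. Its groups did not overlap, and the log2 fold change came to -0.21 ± 0.051 (edgeR adjusted p = 0.00255). ACLY (ENSG00000131473, chromosome 17, 41866908 to 41930542), which cleaves citrate to acetyl-CoA for both branches, had 426, 422 and 437 CPM in BARD1-expressing libraries, against 471, 486 and 454 CPM in control libraries. The groups lay close to each other without overlap, with a log2 fold change of -0.14 ± 0.047 (edgeR adjusted p = 0.0347).

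FADS1 (ENSG00000149485, chromosome 11, 61799625 to 61829318), a desaturase of polyunsaturated fatty acids, rose. It had 199, 195 and 195 CPM in BARD1-expressing libraries, against 167, 182 and 157 CPM in control libraries, and the groups did not overlap. The log2 fold change came to 0.22 ± 0.055 (edgeR adjusted p = 0.00406). Its neighbour FADS2, the desaturase of an earlier step, shares exonic bases with it on the opposite strand and was not called, with a log2 fold change of 0.02 ± 0.067. The difference between these changes was not tested.

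ACSS2 (ENSG00000131069, chromosome 20, 34872146 to 34927962), which makes acetyl-CoA from acetate, lay just outside the threshold, with 8.18, 9.87 and 9.29 CPM in BARD1-expressing libraries, against 7.63, 8.10 and 6.74 CPM in control libraries. The groups did not overlap, and the log2 fold change came to 0.29 ± 0.13 (edgeR adjusted p = 0.0925). ACACA, the carboxylase that makes malonyl-CoA, had -0.11 ± 0.056. The elongases ELOVL5 and ELOVL6 had 0.08 ± 0.049 and 0.01 ± 0.069, so neither was called.

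Scaled per length (TPM, the share of transcripts by exonic length, with every library summing to 1e+06), the order of the genes also differed at the top. SCD averaged 257 ± 14.1 TPM in BARD1-expressing cells and 507 ± 40.3 TPM in control cells (SD, n = 3 each). In control cells it was the highest of the 36 genes, ahead of ACLY at 346 ± 14.7 TPM, SQLE at 280.4 ± 19.7 TPM, ELOVL5 at 259 ± 7.94 TPM and FASN at 253 ± 8.65 TPM, and of these SQLE, ELOVL5 and FASN lay close to each other relative to their spread. In BARD1-expressing cells ACLY at 324 ± 10.2 TPM and ELOVL5 at 282 ± 11.98 TPM stood above SCD, while FASN at 225 ± 8.91 TPM and SQLE at 213 ± 9.96 TPM stood below it. The lowest genes in both groups were SC5D, HSD17B7, ACSS2, TM7SF2, MBTPS2 and CYP51A1, none above 12 TPM. Exons of CYP51A1 and MBTPS2 share 83.2% and 13.4% of their bases with other genes, chiefly on the same strand. How reads on shared bases were counted was not given in the sources used here, so the levels of CYP51A1 and MBTPS2 are uncertain.

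Among the 7 SREBP regulators, 1 fell, 2 rose and 4 were not called, and the 2 that rose, SREBF2 and MBTPS1, lay close to the threshold and lost the call in 11 of 13 alternatives each. Their summed level was 594 ± 9.87 CPM in BARD1-expressing cells and 594 ± 13.5 CPM in control cells (SD, n = 3 each), and the median log2 fold change was 0.02. INSIG1 (ENSG00000186480, chromosome 7, 155297776 to 155310235), the retention protein that is itself an SREBP target, had 42.2, 40.3 and 39.4 CPM in BARD1-expressing libraries 1 to 3, against 72.6, 80.1 and 65.97 CPM in control libraries 1 to 3. The groups were widely apart, and the log2 fold change came to -0.84 ± 0.073 (edgeR adjusted p = 2.79e-09), a difference of -44.3%. INSIG2 (ENSG00000125629, chromosome 2, 118088452 to 118110997), its relative, had 34.1, 32.7 and 34.6 CPM in BARD1-expressing libraries, against 32.9, 35.9 and 31.8 CPM in control libraries. These values overlapped throughout, with a log2 fold change of 0.01 ± 0.076 (edgeR adjusted p = 0.945). The difference between the changes of INSIG1 and INSIG2 was not tested.

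SREBF2 (ENSG00000198911, chromosome 22, 41833079 to 41907308), the gene of the SREBP that favours cholesterol synthesis, had 209.8, 223 and 216 CPM in BARD1-expressing libraries, against 199, 199.9 and 193 CPM in control libraries. The groups did not overlap, and the log2 fold change came to 0.13 ± 0.049 (edgeR adjusted p = 0.0453). SREBF1 (ENSG00000072310, chromosome 17, 17810399 to 17837002), the gene of the SREBP that favours fatty acid synthesis, had 50.4, 55.4 and 57.4 CPM in BARD1-expressing libraries, against 56.4, 56.7 and 57.9 CPM in control libraries. BARD1-expressing library 1 was the lowest and the other values mixed, with a log2 fold change of -0.06 ± 0.066 (edgeR adjusted p = 0.512). MBTPS1 (ENSG00000140943, chromosome 16, 84053761 to 84116906), the protease that makes the first cut in SREBPs, had 113, 107 and 115 CPM in BARD1-expressing libraries, against 99.4, 103 and 99.9 CPM in control libraries. The groups did not overlap, and the log2 fold change came to 0.15 ± 0.055 (edgeR adjusted p = 0.042).

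MBTPS2 (ENSG00000012174, chromosome X, 21839636 to 21885424), the protease of the second cut, had 19.3, 23.1 and 21.3 CPM in BARD1-expressing libraries, against 20.5, 21.02 and 21.6 CPM in control libraries. BARD1-expressing libraries held both the lowest and the highest value, and the log2 fold change came to 0.02 ± 0.090 (edgeR adjusted p = 0.889). SCAP (ENSG00000114650, chromosome 3, 47413694 to 47477126), the sterol-sensing escort, had 114, 116 and 118 CPM in BARD1-expressing libraries, against 111, 112 and 111 CPM in control libraries. All BARD1-expressing values lay above all control values by a narrow margin, yet the log2 fold change of 0.06 ± 0.052 was not called (edgeR adjusted p = 0.436). With 3 libraries a group the smallest exact two-sided permutation p for 1 gene would be 0.1, so calls rest on the spread that edgeR shares across genes. mRNA levels of these regulators say nothing of SREBP cleavage, which was not measured.

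**Figure D3:**
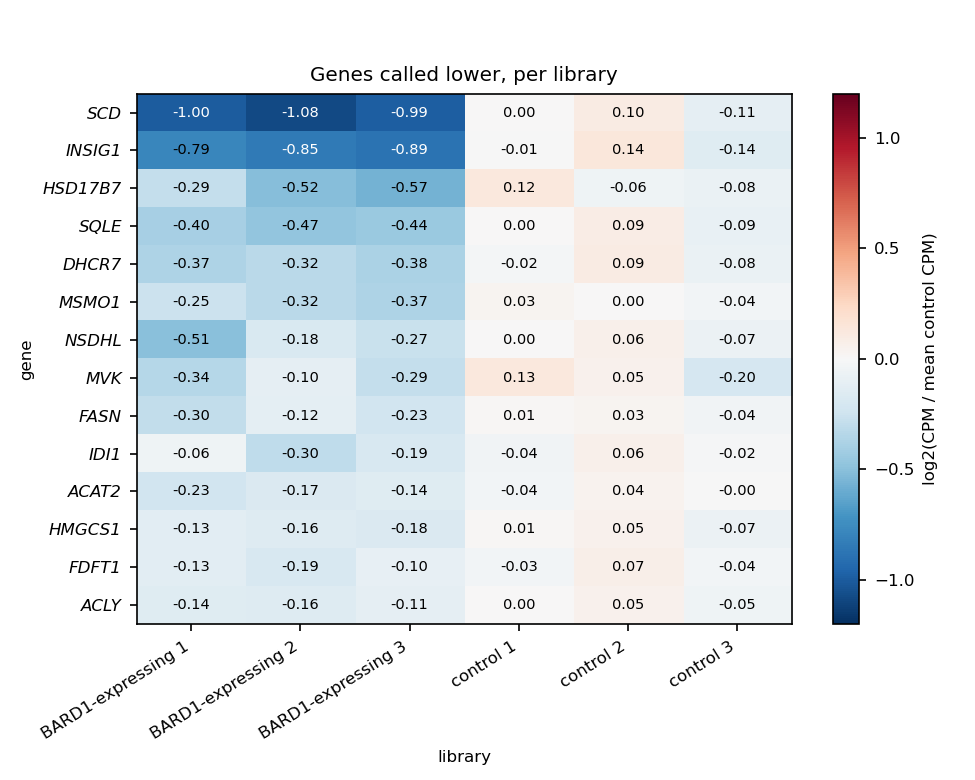
Log2 of the CPM in each library over the mean control CPM for the 14 genes that fell, with BARD1-expressing libraries in the left 3 columns and control libraries in the right 3. SCD and INSIG1 are lowest in every BARD1-expressing library, and control library 3 lies lowest among the controls for 12 of the 14 genes.

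Among the controls, library 2 was the highest for 11 of the 14 genes, and it was the highest for 28.9% of all tested genes and 26.6% of all 1915 genes called lower. Control library 3 was the lowest control for 12 of the 14, and for 35.9% of all tested genes and 31.1% of all genes called lower. Among the BARD1-expressing libraries, library 1 was highest for 6 of the 14 genes and libraries 2 and 3 for 4 each. Over all tested genes, BARD1-expressing libraries 1 to 3 were highest for 37.9%, 35.5% and 26.6%. Over all genes called lower the shares were 43.2%, 34.0% and 22.7%. These counts describe genes that fell as a group and are not independent of each other. Calls of genes with small changes moved with the library left out. What sets control library 2 apart was not tested.

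Of the 17 called genes other than SC5D, 7 were called under all 13 planned ways of processing and 10 lost the call under at least 1. The 7 were SCD, INSIG1, SQLE, DHCR7, MSMO1, FASN and FADS1. SC5D was not tested under a filter of 1 CPM in 3 libraries or without BARD1-expressing library 2, where its counts did not pass, and its calls elsewhere say nothing of stability. The calls of SREBF2 and MBTPS1 were lost in 11 of 13 alternatives each, with edgeR adjusted p up to 0.174 for SREBF2 without BARD1-expressing library 3 and up to 0.239 for MBTPS1 without the same library. Without BARD1-expressing library 3 the adjusted p was 0.14 for HMGCS1, 0.135 for MVK, 0.0855 for IDI1, 0.0834 for FDFT1, 0.0867 for ACLY and 0.0548 for HSD17B7. Without control library 2 it was 0.0805 for ACAT2, 0.173 for HMGCS1, 0.125 for MVK, 0.115 for IDI1, 0.237 for FDFT1, 0.184 for ACLY and 0.0522 for NSDHL. Without control library 1 it was 0.0894 for HMGCS1, 0.188 for MVK, 0.0525 for FDFT1, 0.0736 for ACLY and 0.0574 for HSD17B7, without BARD1-expressing library 2 it was 0.0522 for HMGCS1, 0.101 for IDI1, 0.113 for FDFT1 and 0.066 for ACLY, and without BARD1-expressing library 1 it was 0.0686 for MVK. With DESeq2's Wald test the adjusted p was 0.0503 for MVK and 0.0507 for FDFT1, and with limma voom it was 0.054 for MVK. Conversely, of the genes just outside the threshold, FDPS was called with no filter on low counts (edgeR adjusted p = 0.0299). It was also called without BARD1-expressing library 2 and without control library 3 (edgeR adjusted p of 0.011 and 0.018). STARD4 was called without BARD1-expressing library 2 (0.041) and ACSS2 without BARD1-expressing library 1 (0.0481). The cholesterol branch had 12 genes lower with no filter and 12 without control library 3, against 10 in the reported fit. Not all of these gains are named here. Each of the 17 called genes other than SC5D kept its direction in every alternative.

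A test against a change of 1.2-fold, chosen after the data were seen, called 4 of the 36 genes, which were SCD, INSIG1, SQLE and, with the same limit as above, SC5D. It called 10.8% of all tested genes. For the other 32 genes a change of 1.2-fold or less was not rejected.

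**Figure D4:**
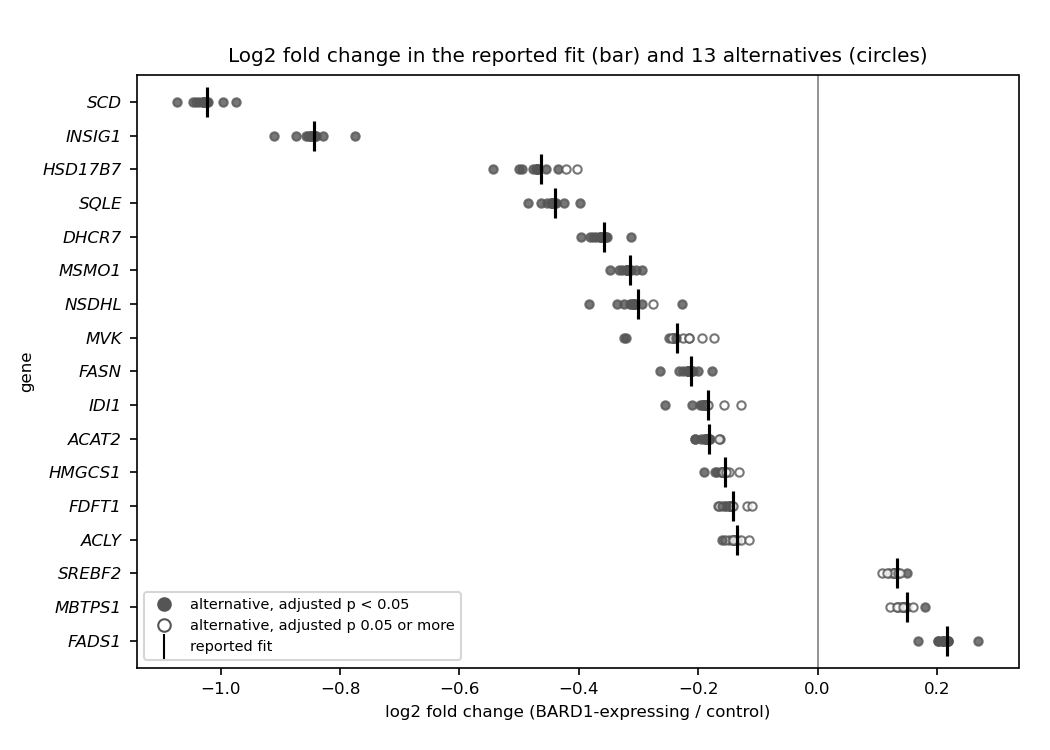
Log2 fold change of 17 called genes in the reported fit (bar) and under 13 other ways of processing (circles, filled where the adjusted p was under 0.05). SC5D is left out, as control cells held no read. SCD, INSIG1, SQLE, DHCR7, MSMO1, FASN and FADS1 have filled circles throughout.

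Genes beside the pathway were described from 4 further lists, whose counts stand beside the 29.0% of all tested genes that were called. Of 26 genes of sterol uptake, transport, storage and oxysterol formation, 23 were tested, 7 rose and 4 fell, with a median log2 fold change of 0.05. The endocytic receptor LRP1 averaged 132 ± 15.8 CPM in BARD1-expressing cells and 97.9 ± 1.89 CPM in control cells, with a log2 fold change of 0.44 ± 0.067 (edgeR adjusted p = 2.63e-05). The lipoprotein receptor gene VLDLR averaged 10.6 ± 0.973 CPM in BARD1-expressing cells and 6.20 ± 0.701 CPM in control cells, and its log2 fold change was 0.76 ± 0.13 (edgeR adjusted p = 8.68e-05). MYLIP, a ubiquitin ligase that sends lipoprotein receptors to degradation, averaged 11.4 ± 0.691 CPM in BARD1-expressing cells and 6.68 ± 0.331 CPM in control cells (SD, n = 3 each for all these means), at 0.76 ± 0.12 on the log2 scale (edgeR adjusted p = 2.93e-05). NPC1 and NPC2, which export cholesterol from lysosomes, both fell, with log2 fold changes of -0.47 ± 0.058 and -0.30 ± 0.070, and the oxysterol-binding relative OSBPL1A fell at -0.61 ± 0.081. NPC1 and OSBPL1A lie on chromosome 18, where 74.6% of 228 tested genes were called lower, whereas none of the 36 genes lies there.

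Of 14 genes that carry isoprenoids to dolichol, coenzyme Q and protein prenylation, 13 were tested and 0 were called by edgeR, DESeq2 or limma voom, while 2 had an unadjusted edgeR p under 0.05. Their median log2 fold change was 0.05. Of 33 further fatty acid genes, 30 were tested, 5 rose and 4 fell, with a median of 0.02, so that 9 of 30 were called, a share close to that of all tested genes. The rises included HACD3 and HACD1, dehydratases of fatty acid elongation, with log2 fold changes of 0.30 ± 0.051 and 0.41 ± 0.082, and the elongase ELOVL2 at 0.29 ± 0.061. The falls included the elongase ELOVL7 at -0.53 ± 0.088, the phosphatidate phosphatase LPIN1 at -0.34 ± 0.086 and the acyltransferase GPAM at -0.31 ± 0.089.

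Of 20 further regulators of SREBP transport, stability and enzyme turnover, all were tested, 6 rose and 4 fell, with a median log2 fold change of 0.02. SEC24A, a coat protein of the vesicles that leave the endoplasmic reticulum, rose, with 69.3 ± 4.42 CPM in BARD1-expressing cells and 40.7 ± 4.12 CPM in control cells (SD, n = 3 each) and a log2 fold change of 0.77 ± 0.075 (edgeR adjusted p = 2.32e-08). The ubiquitin ligase gene RNF145, whose product acts on sterol-regulated proteins of the endoplasmic reticulum, rose as well, at 0.39 ± 0.049. SEC24A and RNF145 lie on chromosome 5, where 32.4% of 726 tested genes were called higher, and of the 36 genes HMGCS1 and STARD4 lie there. HMGCS1 was called lower. STARD4 was not called in the reported fit, and was called higher without BARD1-expressing library 2 (edgeR adjusted p = 0.041). PRKAA2, a catalytic subunit of AMP-activated kinase, fell at -0.53 ± 0.091, and LPCAT3, a phospholipid acyltransferase, fell at -0.46 ± 0.11. The kinase gene SIK1 fell, with 2, 10 and 4 reads in BARD1-expressing libraries, against 22, 16 and 17 reads in control libraries and a log2 fold change of -1.38 ± 0.46, and how its reads were divided with near-identical copies is uncertain.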

How the data were processed

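Poly(A)-selected RNA of 3 BARD1-expressing and 3 control libraries was measured. The deposited table holds whole-number counts of reads per gene, not normalized by the authors. The tools named, per the submitters' processing notes, are DESeq2 1.20.0, featureCounts 1.5.0-p3 and HISAT2 2.0.5, with the build GRCh38 (hg38), and their roles, options and use of strand were not given in the sources used here. Gene identifiers, positions and exonic lengths of all 58735 rows equal those of GENCODE release v29, which gave the exon overlaps.

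Counts were filtered with filterByExpr, scaled by TMM (a trimmed mean of log ratios) and fitted on group alone in edgeR 4.0.16 (R 4.3.3) with the robust quasi-likelihood test and 4 residual degrees of freedom. Benjamini-Hochberg adjustment ran over 15400 genes. The pipeline was also tested on simulated counts. CPM are TMM-scaled, and TPM use exonic length. No 2 libraries of a group were identical, and chi-square per degree of freedom between them was 3.41 to 8.11. A count of 0 allows up to 3 reads, or 0.124 to 0.236 CPM, for counting error only.

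The members and lists were chosen with earlier results of these data known. Library values are given for the regulators and for genes with an adjusted p under 0.1, and of each other list the up to 3 called genes per direction with the smallest p are named, except 1 that is not reported here. Alternatives were DESeq2 size factors, scaling without chromosomes 5, 18, X and MT, other filters, DESeq2 1.42.0, limma 3.58.1 voom, a replicate block, each library left out and a 1.2-fold test. Promoter windows are from RefSeq (GRCh38.p14).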

Additional observations from a re-analysis of the deposited data

How the results depend on the processing

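SCD, INSIG1 and SQLE were called lower in every alternative run. Counts of calls moved as follows. With 1 library left out, the cholesterol branch had 4 to 12 genes lower, the fatty acid branch 1 to 2 higher, the SREBP regulators 0 to 1 higher, and the named genes 9 to 17 called, against 18 in all. The test against a 1.2-fold change, chosen after seeing the data, gave 579 genes lower and 1078 higher over all tested genes, 1 lower in the cholesterol branch, 1 lower and 0 higher in the fatty acid branch, 0 higher among the regulators, 4 named genes called, and 4 lower and 6 higher in the other lists. Regulators called higher numbered 0 with DESeq2 size factors, with scaling without chromosomes 5, 18, X and MT, with no filter on low counts, with DESeq2's Wald test and with the replicate block, and 1 with at least 1 CPM in 3 libraries and with limma voom. With at least 1 CPM in 3 libraries 0 cholesterol genes were higher, since SC5D was not tested. INSIG2 reversed its sign to -0.0038 with no filter and ranged from -0.027 to 0.058 with 1 library left out, and MBTPS2 ranged from -0.053 to 0.077, neither called in any of them. For the other moves the cause was not tested.

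Nothing in the labels says that a replicate number marks a shared batch. Deviations from the group means correlated at -0.164, -0.0328 and -0.0173 between libraries of the same number, and 0 of 6 libraries correlated best with its own number. Between libraries of different numbers they ranged from -0.154 (BARD1-expressing 2 with control 3) to 0.191 (BARD1-expressing 2 with control 1). With 3 libraries a group these values cannot decide whether the libraries were paired. With the replicate block 1694 genes were lower and 2296 higher, against 1915 and 2545 without it, and 8 cholesterol genes were lower. HMGCS1, FDFT1, ACLY, SREBF2 and MBTPS1 were not called with it (edgeR adjusted p of 0.0823, 0.107, 0.109, 0.122 and 0.0996).

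Depth was 12744310 to 24349158 reads a library, which limits genes under about 1 CPM such as SC5D. Small changes, as in SREBF2 and MBTPS1, are at the edge of what 3 libraries a group can show, and the conflict of cell line labels holds for all values.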

Other observations

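CYP27A1, TRIB1 and ABCA1, none of the 36 genes, were picked after their values were seen. CYP27A1, the mitochondrial enzyme that starts oxidation of the cholesterol side chain, had 23, 34 and 24 reads in BARD1-expressing libraries 1 to 3, against 8, 6 and 13 reads in control libraries 1 to 3, with a log2 fold change of 1.99 ± 0.38 (edgeR adjusted p = 0.000269). The groups did not overlap. TRIB1, a pseudokinase tied to degradation of lipogenic factors in mouse liver, averaged 23.3 ± 0.544 CPM in BARD1-expressing cells and 17.95 ± 1.65 CPM in control cells (SD, n = 3 each), at 0.38 ± 0.091 on the log2 scale (edgeR adjusted p = 0.00298). ABCA1, the exporter of cellular cholesterol, averaged 2.97 ± 0.396 CPM in BARD1-expressing cells and 4.23 ± 0.838 CPM in control cells (SD, n = 3 each) and lay just outside the threshold, at -0.50 ± 0.19 (edgeR adjusted p = 0.0579).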
